A study of Homo sapiens with 2 samples.

Results

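HK2, SLC16A3, ANGPTL4 and CA12 are 4 genes of glucose use, lactate export and the response to low oxygen, and they were taken by symbol from the 1806 genes of a deposited differential expression table for a pair of ovarian cancer lines. All 4 have a row there. The BRCA1-deficient cells are UWB1.289, an established cell line of serous ovarian cancer that lacks functional BRCA1, with the genotype label BRCA1 Knockout. The BRCA1-restored cells, labelled UWABRCA1 and WT, are UWB1.289 with BRCA1 put back by stable transfection. Both were untreated, the labels give 1 sample for each, and the labels name no culture in low oxygen or low glucose. Total RNA was depleted of ribosomal RNA and sequenced as strand-specific libraries. The values are FPKM, fragment numbers divided by transcript length and sequencing depth, given as 1 mean per line. Levels can thus be compared between genes, but no spread or n is given with any value below. The depth of the libraries is unknown. With 1 line of each kind, an effect of BRCA1 cannot be told apart from any other difference between the lines.

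Cells split glucose to pyruvate in glycolysis and, when oxygen is short or growth is fast, turn much of the pyruvate into lactate and export it with a proton. Hypoxia-inducible factor (HIF), a pair of a HIF alpha subunit and ARNT, accumulates at low oxygen and binds short DNA elements with an ACGTG or GCGTG core near its target genes. HK2 encodes hexokinase 2, which traps glucose in the cell as glucose 6-phosphate at the first step of glycolysis. SLC16A3 encodes MCT4, a monocarboxylate transporter that carries lactate and protons out of glycolytic cells. ANGPTL4 encodes a secreted protein that inhibits lipoprotein lipase and is induced by HIF and by the fatty acid receptors of the PPAR family. CA12 encodes carbonic anhydrase XII, a membrane enzyme that hydrates carbon dioxide outside the cell and so takes part in acid handling. All are known as genes that hypoxia can induce.

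The promoters are shown first because each gene is described as a HIF target, and the letters of that element can be looked for in them. The sequences are RefSeq promoters (GRCh38.p14), each running from 250 bases before an annotated start to 50 bases after it, 5′ to 3′ on the strand of the gene. Capitals mark every ACGTG and GCGTG on either strand. RefSeq lists 2 starts for HK2, 5 for SLC16A3 and 1 each for ANGPTL4 and CA12. The first starts are those nearest to the 5′ end of the gene in the deposited coordinates, and the second starts of HK2 and SLC16A3 are added because they hold ACGTG.
HK2 start 1 (chr2:74833877-74834176, plus strand): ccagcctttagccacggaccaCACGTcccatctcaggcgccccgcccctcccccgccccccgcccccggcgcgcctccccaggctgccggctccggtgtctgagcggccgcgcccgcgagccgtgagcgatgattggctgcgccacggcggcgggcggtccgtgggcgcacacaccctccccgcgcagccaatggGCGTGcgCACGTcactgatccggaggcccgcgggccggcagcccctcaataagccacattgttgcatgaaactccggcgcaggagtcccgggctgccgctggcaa
HK2 start 2 (chr2:74834920-74835219, plus strand): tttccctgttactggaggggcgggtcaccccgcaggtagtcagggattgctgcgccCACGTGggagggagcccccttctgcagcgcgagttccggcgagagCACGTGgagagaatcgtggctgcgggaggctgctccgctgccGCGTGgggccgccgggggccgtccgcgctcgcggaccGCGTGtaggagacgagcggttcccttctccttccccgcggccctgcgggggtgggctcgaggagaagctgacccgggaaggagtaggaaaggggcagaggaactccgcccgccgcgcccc
SLC16A3 start 1 (chr17:82228185-82228484, plus strand): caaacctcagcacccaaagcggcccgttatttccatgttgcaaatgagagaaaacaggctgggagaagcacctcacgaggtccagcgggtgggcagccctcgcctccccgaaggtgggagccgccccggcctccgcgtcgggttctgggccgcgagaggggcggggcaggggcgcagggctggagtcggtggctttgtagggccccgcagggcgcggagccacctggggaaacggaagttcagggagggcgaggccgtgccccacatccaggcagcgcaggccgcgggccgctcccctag
SLC16A3 start 2 (chr17:82228792-82229091, plus strand): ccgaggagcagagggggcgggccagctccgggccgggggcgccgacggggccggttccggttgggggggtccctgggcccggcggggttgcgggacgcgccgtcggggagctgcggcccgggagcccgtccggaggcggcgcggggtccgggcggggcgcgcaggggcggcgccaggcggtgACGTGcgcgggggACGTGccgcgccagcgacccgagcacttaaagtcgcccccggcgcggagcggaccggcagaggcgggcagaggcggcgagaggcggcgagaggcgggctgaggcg
ANGPTL4 (chr19:8363905-8364204, plus strand): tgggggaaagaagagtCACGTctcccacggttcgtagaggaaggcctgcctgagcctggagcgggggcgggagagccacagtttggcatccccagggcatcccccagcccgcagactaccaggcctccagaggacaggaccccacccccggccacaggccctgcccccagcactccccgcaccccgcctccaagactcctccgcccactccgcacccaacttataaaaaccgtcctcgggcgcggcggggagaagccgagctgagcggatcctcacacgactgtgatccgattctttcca
CA12 (chr15:63381797-63382096, minus strand): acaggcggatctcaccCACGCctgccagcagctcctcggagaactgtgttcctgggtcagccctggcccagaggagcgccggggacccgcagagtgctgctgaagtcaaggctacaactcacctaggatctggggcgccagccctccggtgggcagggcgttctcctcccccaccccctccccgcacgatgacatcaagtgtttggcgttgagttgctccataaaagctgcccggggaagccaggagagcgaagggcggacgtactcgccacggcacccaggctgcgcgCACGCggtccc

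HK2 held the most of these cores. Its start 1 had 2 matches to ACGTG, at positions -229 and -48, and 1 to GCGTG at -55, counting the last base before the start as -1 and giving the first base of a match on the strand of the gene. Its start 2 had 2 matches to CACGTG, the E-box bound by MYC and related factors, at -194 and -149. CACGTG reads the same on both strands and contains ACGTG on each, so these are also the 4 ACGTG matches of that window, beside 2 matches to GCGTG. SLC16A3 start 1, 38 bases from the 5′ end of the gene in the deposited coordinates, had neither core, and start 2 had 2 matches to ACGTG at -68 and -55. Starts 3, 4 and 5 of SLC16A3, not printed, had 0, 3 and 1 matches to GCGTG and none to ACGTG. ANGPTL4 had 1 ACGTG at -234 and CA12 had 2 GCGTG at -234 and 40. These letters are common, and either core was present in 48.4% of the 35116 RefSeq promoters searched in the same way, ACGTG in 21.4%, GCGTG in 36.5% and CACGTG in 7.26%. Among promoters of listed genes, either core was present in 52.6% of the 1032 windows of genes higher in BRCA1-deficient cells and in 49.1% of the 994 windows of genes lower there. Cores were present at starts of SLC16A3, which was higher in BRCA1-deficient cells, and of the 3 members that were lower there. The shares above are per window, so they are no background for a gene with several starts, such as SLC16A3 or HK2.

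**Figure D1:**
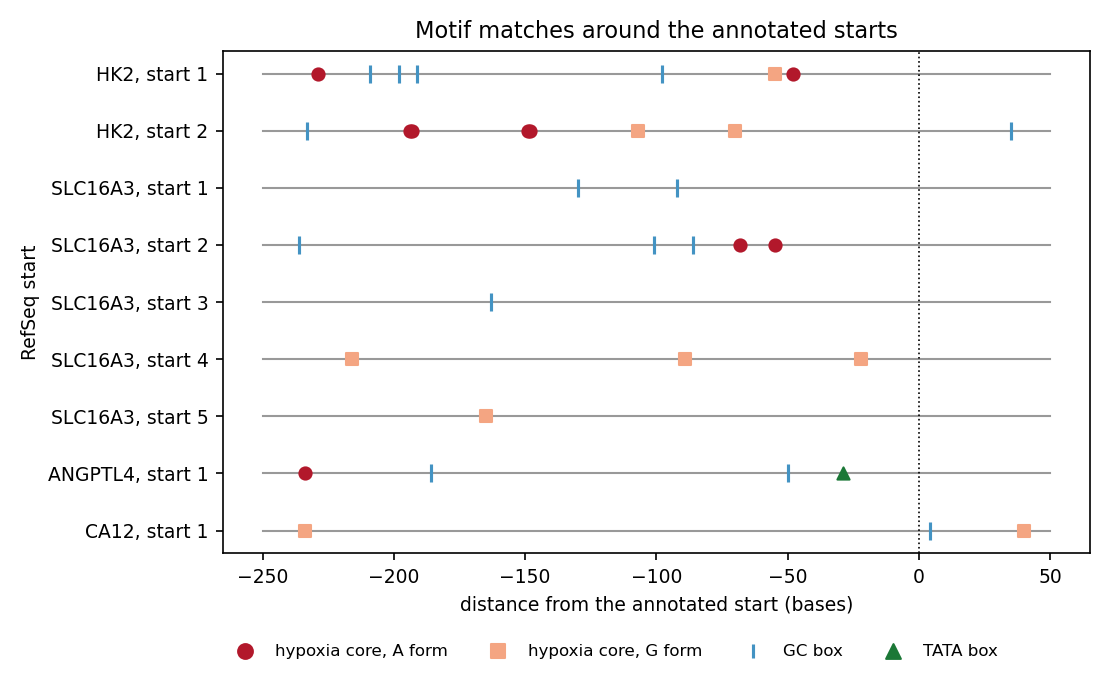
Motif matches in the 9 RefSeq promoter windows of HK2, SLC16A3, ANGPTL4 and CA12, with the distance from the annotated start in bases on the x axis and 1 line per start. Circles and squares are the ACGTG and GCGTG hypoxia cores, bars the GC box GGGCGG and the triangle the TATA box TATAAA, each searched on both strands; SLC16A3 starts 1 and 3 carry no core, and the TATA box of ANGPTL4 lies at -29.

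The GC box GGGCGG, read by SP1-type factors, occurred in 7 of these 9 windows, with 4 matches at HK2 start 1. It was present in 44.95% of all promoters and in 58.9% of the promoters of listed genes. TATAAA was found only in the window of ANGPTL4, at -29, and in 11.5% of all promoters.

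HK2, the hexokinase gene, was lower in BRCA1-deficient cells. HK2 (ENSG00000159399, chromosome 2, 74833981 to 74893359, plus strand, read as GRCh38) had 11.5 FPKM in BRCA1-deficient cells, against 49.0 FPKM in BRCA1-restored cells. The BRCA1-deficient cells thus had 0.234 times the level of BRCA1-restored cells. On the scale of log2(FPKM + 1) the difference, BRCA1-deficient minus BRCA1-restored cells, was -2.00. The authors' deposited table gave HK2 a log2 fold change of -2.00 and an adjusted p of 9.6e-07, place 229 by p among the 1806 listed genes. These are bulk values, in which fewer cells with a transcript and less of it per cell cannot be told apart. In BRCA1-deficient cells 79.5% of the listed genes were below HK2, and in BRCA1-restored cells 96.5% were.

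SLC16A3, the lactate exporter, was the 1 member higher in BRCA1-deficient cells. SLC16A3 (ENSG00000141526, chromosome 17, 82228397 to 82261129, plus strand) had 16.6 FPKM in BRCA1-deficient cells, against 5.94 FPKM in BRCA1-restored cells, 2.79 times as much. The log2 difference on FPKM + 1 was 1.34, and the authors' deposited table gave a log2 fold change of 1.54 with an adjusted p of 0.0014. The span of SLC16A3, introns included, overlaps that of CSNK1D on the opposite strand over 22107 bases in GENCODE release 29. The sources used here do not say whether reads were counted by strand, so reads of the 2 genes may be mixed in this value. On its own strand SLC16A3 overlaps MIR6787, AC132872.3 and AC132872.4, which counting by strand would not separate. CSNK1D has no row and is not analysed here. Bringing both lines to equal totals over the listed genes reduced the difference to 0.94, and centring on the median ratio of listed genes reduced it to 0.41. Both were still positive but under 2-fold. Both settings rest on called genes alone. Centring lowers every value of BRCA1-deficient cells by 1.01 on the log2 scale, so any higher gene comes out weaker, and the true scaling is unknown.

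ANGPTL4, the lipoprotein lipase inhibitor, was lower in BRCA1-deficient cells. ANGPTL4 (ENSG00000167772, chromosome 19, 8363289 to 8374370, plus strand) had 8.28 FPKM in BRCA1-deficient cells, against 21.8 FPKM in BRCA1-restored cells, a ratio of 0.381. Its log2 difference on FPKM + 1 was -1.29, and the authors' deposited table gave a log2 fold change of -1.26 with an adjusted p of 0.0242. That is the smallest fold and the largest adjusted p of the 4 members in the authors' deposited table, where ANGPTL4 is at place 1415 of 1806 by p.

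CA12, the extracellular carbonic anhydrase, was lower in BRCA1-deficient cells and under 1 FPKM in both. CA12 (ENSG00000074410, chromosome 15, 63321378 to 63381846, minus strand) had 0.206 FPKM in BRCA1-deficient cells, against 0.766 FPKM in BRCA1-restored cells, a ratio of 0.269. Because the added 1 FPKM outweighs such values, the log2 difference on FPKM + 1 was only -0.55, while the log2 ratio of the FPKM themselves was -1.89. The authors' deposited table gave a log2 fold change of -1.77 with an adjusted p of 0.00257. In that table the fold of CA12 was larger than that of ANGPTL4, but its level was 0.0249 times that of ANGPTL4 in BRCA1-deficient cells and 0.0352 times in BRCA1-restored cells.

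**Figure D2:**
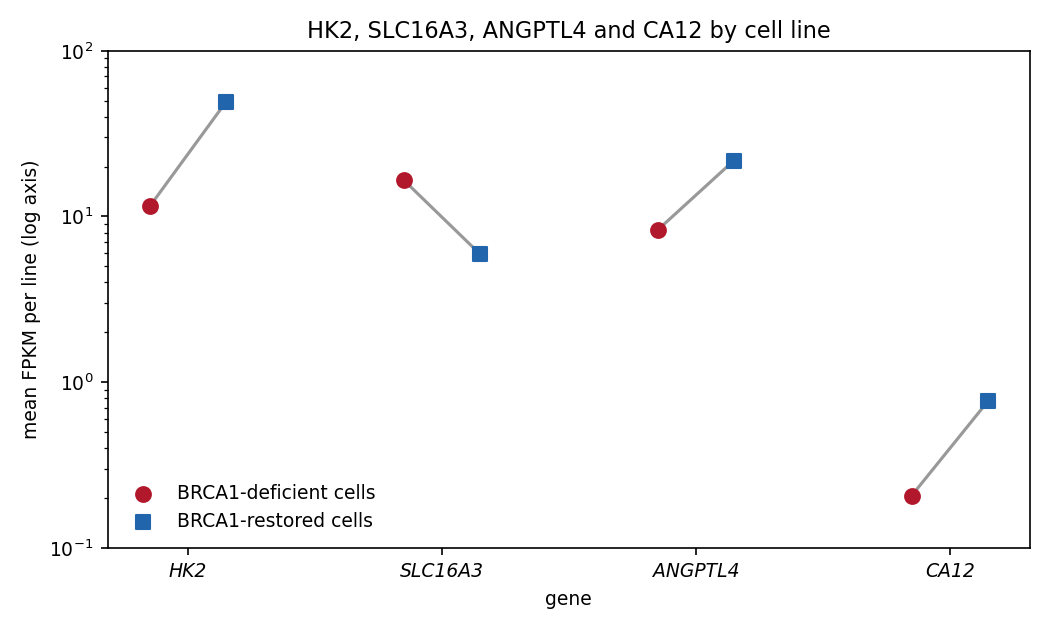
Mean FPKM per line on a log axis for HK2, SLC16A3, ANGPTL4 and CA12, with circles for BRCA1-deficient cells, squares for BRCA1-restored cells and a grey line joining the means of a gene. HK2 (11.5 against 49.0), ANGPTL4 (8.28 against 21.8) and CA12 (0.206 against 0.766) are lower in BRCA1-deficient cells and SLC16A3 (16.6 against 5.94) is higher; no error bars are drawn because 1 mean per line was given.

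Of the 4 members, 1 was at least 2-fold higher in BRCA1-deficient cells on the scale of FPKM + 1, against 25.3% of all listed genes, and 2 were at least 2-fold lower, against 22.5%. By the fold in the authors' deposited table, 1 was at least 2-fold higher, against 53.4% of listed genes, and 3 were at least 2-fold lower, against 46.0%. No test was made of these counts over 4 genes.

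The order of the 4 levels changed between the lines. In BRCA1-deficient cells SLC16A3 was the highest, followed by HK2, ANGPTL4 and CA12. In BRCA1-restored cells HK2 was the highest, followed by ANGPTL4, SLC16A3 and CA12. The FPKM of SLC16A3 was 1.44 times that of HK2 in BRCA1-deficient cells and 0.121 times in BRCA1-restored cells. This ratio is taken within a line, so a common scaling of that line leaves it the same. The FPKM of HK2 was 1.39 times that of ANGPTL4 in BRCA1-deficient cells and 2.25 times in BRCA1-restored cells. Without a spread, it cannot be said which neighbours in these orders differ.

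**Figure D3:**
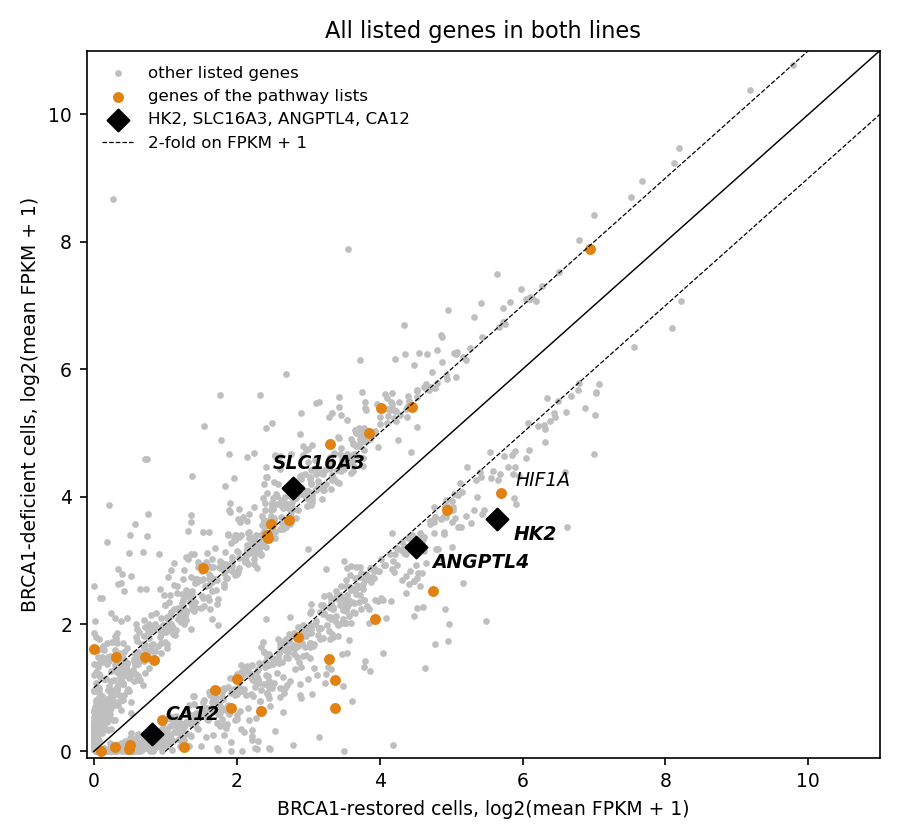
log2 of mean FPKM + 1 in BRCA1-deficient cells (y axis) against BRCA1-restored cells (x axis) for the 1806 listed genes, with the 4 members as black diamonds, other genes of the pathway lists in orange, the solid line at equality and the dashed lines at 2-fold. HK2, ANGPTL4 and HIF1A lie below the lower dashed line, SLC16A3 above the upper one and CA12 near the origin between them.

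Genes with the nearest pairs of levels, by Euclidean distance over the 2 values of log2(FPKM + 1), were NFIB and LIMCH1 for HK2, RPS6KA4 and ABHD4 for SLC16A3, ADD3 for ANGPTL4, and ARMH4 and STOX1 for CA12. NFIB had 12.2 FPKM in BRCA1-deficient cells, against 42.4 FPKM in BRCA1-restored cells, at a distance of 0.222 from HK2. RPS6KA4 had 16.3 FPKM in BRCA1-deficient cells, against 6.21 FPKM in BRCA1-restored cells, at a distance of 0.0610 from SLC16A3. ADD3 had 8.28 FPKM in BRCA1-deficient cells, against 20.7 FPKM in BRCA1-restored cells, at a distance of 0.0708 from ANGPTL4. Of these 7 genes, ARMH4 was the closest to its member, at 0.0197 from CA12, and the 2 named for HK2 were the furthest from theirs.

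The direction of the listed genes differed with the base composition of their transcripts, and the members are placed in it here. In the lowest quintile of GC content, taken from the longest GENCODE transcript, 14.2% of listed genes were higher in BRCA1-deficient cells, and in the highest quintile 89.7% were. SLC16A3, with 62.7% GC, and ANGPTL4, with 63.3% GC, are both in the highest quintile. SLC16A3 was higher like most of it, and ANGPTL4 was 1 of the 37 of 359 genes there that were lower. HK2, with 51.2% GC, and CA12, with 50.2%, are in the middle quintile, where 59.3% of genes were higher. Whether GC content had a part in the members' differences was not tested.

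**Figure D4:**
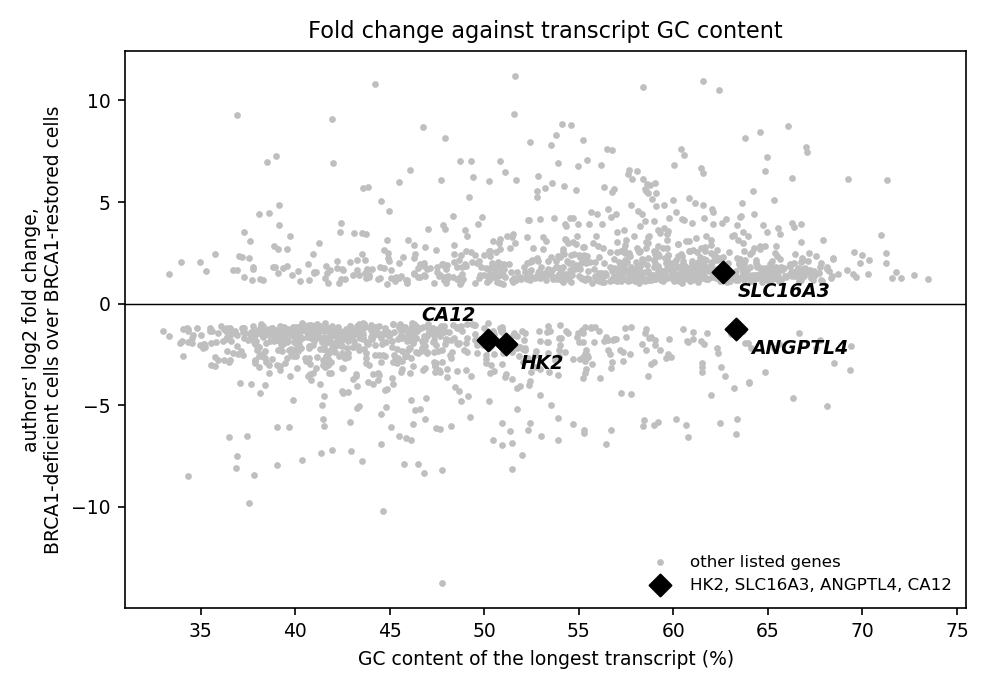
log2 fold change of the authors' deposited table (BRCA1-deficient over BRCA1-restored cells, y axis) against the GC content of the longest transcript in % (x axis) for 1796 listed genes, with HK2, SLC16A3, ANGPTL4 and CA12 as black diamonds. SLC16A3 (62.7% GC) and ANGPTL4 (63.3% GC) lie close together on the x axis and on opposite sides of 0.

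The other genes of the pathway were taken from 13 lists of 270 genes in all, of which 36 had a row, 15 higher in BRCA1-deficient cells by the sign of the authors' fold and 21 lower. Without the 4 members, 14 of 32 were higher (43.8%) and 18 lower, beside 53.5% higher among all listed genes. On the scale of FPKM + 1, 8 of the 36 were higher by 2-fold or more, beside 25.3% of all listed genes. Lower by as much were 13, beside 22.5%, and the median difference was -0.43 beside 0.20 over all listed genes. Leaving out the 4 members, 7 of 32 were higher and 11 lower by 2-fold or more, with a median difference of -0.31. The higher pathway genes had a median transcript GC content of 60.2% and the lower ones 45.8%, beside 58.0% and 44.1% over all listed genes, and the part of GC content in this split was not tested. Genes of the lists without a row were not analysed here. The share of all tested genes that have a row is not given here. The numbers of list genes with a row, here and below, are therefore not a result about the lists. All genes named below have an adjusted p of at most 0.0499 in the authors' deposited table, as every listed gene does. Some overlap a gene on the opposite strand, among them BHLHE41 with SSPN, PCK2 with NRL and PYGL with ABHD12B. SSPN, NRL and ABHD12B are also listed, each in the same direction as the gene it overlaps, so reads may be mixed in these values.

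At the hexokinase step HK2 was lower in BRCA1-deficient cells and ADPGK was higher. ADPGK, which phosphorylates glucose with ADP in place of ATP, had 11.5 FPKM in BRCA1-deficient cells, the same as HK2 to 1 decimal, against 5.67 FPKM in BRCA1-restored cells. After centring, which lowers every value of BRCA1-deficient cells by 1.01 on the log2 scale, ADPGK differed by 0.0063.

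Of 13 glucose carriers 5 had a row, and in BRCA1-deficient cells 1 of them was higher and 4 were lower, beside 53.5% higher and 46.5% lower among all listed genes. SLC2A6, a carrier of intracellular membranes, had 27.5 FPKM in BRCA1-deficient cells, against 8.87 FPKM in BRCA1-restored cells. SLC2A12, a facilitative glucose carrier, had 1.18 FPKM in BRCA1-deficient cells, against 9.40 FPKM in BRCA1-restored cells. SLC2A9, known best as a urate carrier, had 2.47 FPKM in BRCA1-deficient cells, against 6.27 FPKM in BRCA1-restored cells. SLC2A14, at 0.0265 FPKM in BRCA1-deficient cells, against 0.402 FPKM in BRCA1-restored cells, and SLC2A3, listed at 0 in BRCA1-deficient cells and at 0.0708 FPKM in BRCA1-restored cells, are close copies of each other, so reads could be assigned to either. None of the 27 later glycolytic enzymes and their isoforms had a row, so the path from glucose 6-phosphate to pyruvate is not analysed here.

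Of 20 genes of pyruvate and lactate metabolism 3 had a row. PDK4, a kinase that switches off pyruvate dehydrogenase and, like ANGPTL4, a known PPAR target, had 0.551 FPKM in BRCA1-deficient cells, against 4.08 FPKM in BRCA1-restored cells. Its relative PDK3 had 1.19 FPKM in BRCA1-deficient cells, against 3.03 FPKM in BRCA1-restored cells. PCK2, the mitochondrial enzyme that makes phosphoenolpyruvate, had 31.0 FPKM in BRCA1-deficient cells, against 13.4 FPKM in BRCA1-restored cells. In the authors' deposited table the log2 fold change was -2.95 for PDK4, -1.40 for PDK3 and 1.28 for PCK2.

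Of 18 monocarboxylate transporters and their chaperones 3 had a row, SLC16A3 included. SLC16A7, which encodes the lactate and pyruvate carrier MCT2, had 1.79 FPKM in BRCA1-deficient cells, against 0.651 FPKM in BRCA1-restored cells, higher like SLC16A3. SLC16A10, an aromatic amino acid carrier of the same family, had 0.405 FPKM in BRCA1-deficient cells, against 0.933 FPKM in BRCA1-restored cells. SLC16A3 was the highest of the 3 in both lines.

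Of 12 genes of oxygen sensing 3 had a row, and these 3 were lower in BRCA1-deficient cells, beside 46.5% lower among all listed genes, with no test made of a count this small. HIF1A, the oxygen-regulated subunit of HIF, had 15.7 FPKM in BRCA1-deficient cells, against 51.1 FPKM in BRCA1-restored cells, with a log2 fold change of -1.67 and an adjusted p of 0.00251 in the authors' deposited table. HIF1A lies close to HK2 in the plot of all listed genes, with a log2 difference on FPKM + 1 of -1.64 beside -2.00 for HK2. Reads of HIF1A-AS1 and HIF1A-AS2, on the opposite strand, and of AL137129.1, on the same strand, may enter this value. CITED2, which competes with HIF for a coactivator and limits its activity, had 12.8 FPKM in BRCA1-deficient cells, against 29.8 FPKM in BRCA1-restored cells. ARNT2, a partner subunit, had 0.0534 FPKM in BRCA1-deficient cells, against 0.222 FPKM in BRCA1-restored cells. HIF is regulated mainly through protein stability, and these values are RNA only.

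Of 41 hypoxia-induced genes 8 had a row. In BRCA1-deficient cells 2 of them were higher and 6 lower, beside 46.5% lower among all listed genes. The lower ones include the members ANGPTL4 and CA12, and without these members 2 of 6 were higher and 4 lower. HK2, which was lower, and SLC16A3, which was higher, are counted in other lists and not in this one. Both are named above as genes that hypoxia can induce. BHLHE41, a clock-related repressor, had 4.72 FPKM in BRCA1-deficient cells, against 25.97 FPKM in BRCA1-restored cells. CXCR4, a chemokine receptor, had a log2 fold change of -3.86 in the authors' deposited table, the largest of the 8 in size. RORA, a nuclear receptor, had 0.612 FPKM in BRCA1-deficient cells, against 2.78 FPKM in BRCA1-restored cells, and STC1, a secreted glycoprotein, had 0.0725 FPKM in BRCA1-deficient cells, against 0.424 FPKM in BRCA1-restored cells. In the other direction EDN1, the vasoconstrictor endothelin 1, had 41.2 FPKM in BRCA1-deficient cells, against 15.3 FPKM in BRCA1-restored cells. CA12 was the 1 gene with a row among 26 carbonic anhydrases and acid transporters.

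**Figure D5:**
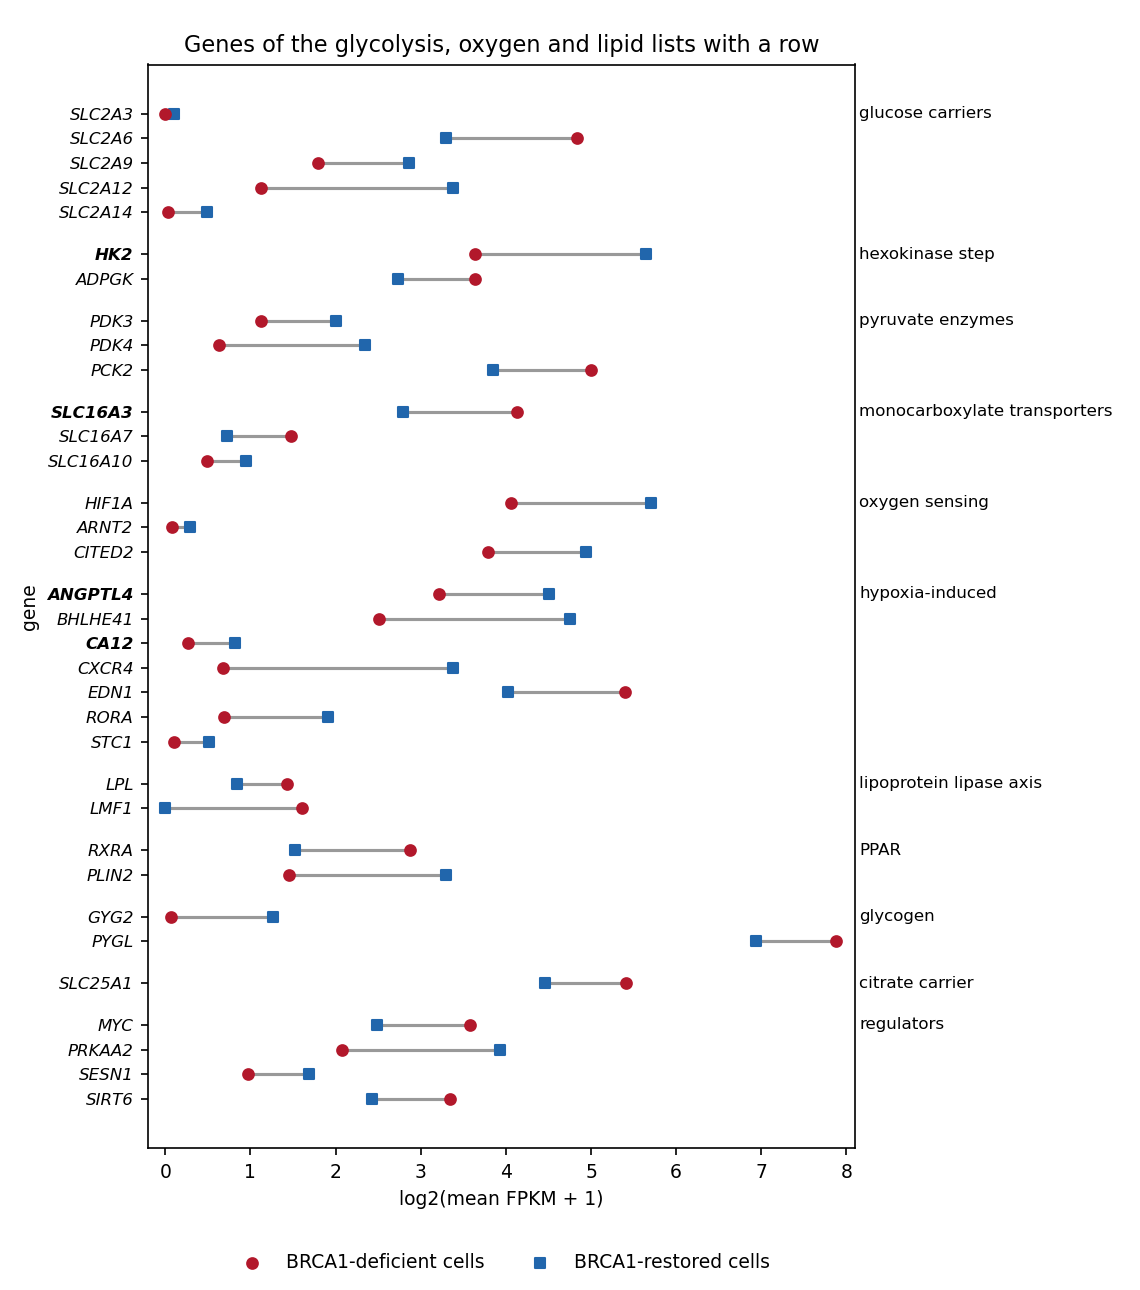
log2 of mean FPKM + 1 for 34 of the 36 genes of the pathway lists with a row, each under the first list that names it, with circles for BRCA1-deficient cells, squares for BRCA1-restored cells and the members in bold. HK2, HIF1A, ANGPTL4 and BHLHE41 lie to the left in BRCA1-deficient cells, and SLC16A3, SLC2A6, EDN1 and PCK2 lie to the right.

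Around ANGPTL4, the lipoprotein lipase axis and the PPAR genes gave both directions. LPL, lipoprotein lipase itself, had 1.69 FPKM in BRCA1-deficient cells, against 0.791 FPKM in BRCA1-restored cells, the opposite direction to its inhibitor ANGPTL4. LMF1, a factor needed for the folding of lipases, had 2.05 FPKM in BRCA1-deficient cells and was listed at 0 in BRCA1-restored cells. RXRA, the partner receptor of the PPARs, had 6.34 FPKM in BRCA1-deficient cells, against 1.88 FPKM in BRCA1-restored cells. Of the 23 PPAR receptors and targets 4 had a row, and the other 3, ANGPTL4, PDK4 and the lipid droplet protein PLIN2, were lower, beside 46.5% lower among all listed genes, PLIN2 with a log2 fold change of -2.27 in the authors' deposited table.

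Glycogen genes, the citrate carrier and regulators of glycolysis split as well. GYG2, a glycogenin that primes glycogen, had 0.0454 FPKM in BRCA1-deficient cells, against 1.40 FPKM in BRCA1-restored cells. PYGL, a glycogen phosphorylase, had 235 FPKM in BRCA1-deficient cells, against 122 FPKM in BRCA1-restored cells. These were the highest levels of the 36 genes in both lines. SLC25A1, the mitochondrial citrate carrier, had 41.6 FPKM in BRCA1-deficient cells, against 21.002 FPKM in BRCA1-restored cells. The centring shift of 1.01 is larger than their log2 differences of 0.94 and 0.95. After centring PYGL was therefore at -0.06 and SLC25A1 at -0.02 on the log2 scale. PRKAA2, a catalytic subunit of the energy sensor AMPK, had 3.23 FPKM in BRCA1-deficient cells, against 14.3 FPKM in BRCA1-restored cells. MYC, which can activate glycolytic genes, had a log2 fold change of 1.39 in the authors' deposited table, and SESN1, which restrains mTORC1 signalling, one of -1.36. SIRT6, a deacetylase known to repress glycolytic genes, is matched by gene ID and coordinates, since the file gives its row the symbol AC016586.1, and had 9.17 FPKM in BRCA1-deficient cells, against 4.39 FPKM in BRCA1-restored cells.

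The labels were checked on BRCA1, which had 5.63 FPKM in BRCA1-deficient cells, against 22.03 FPKM in BRCA1-restored cells. Of 14 serous and epithelial markers 5 had a row, with a summed level of 50.1 FPKM in BRCA1-deficient cells, against 125 FPKM in BRCA1-restored cells. Most of that sum was CDH6, a cadherin, with 41.1 FPKM in BRCA1-deficient cells, against 117 FPKM in BRCA1-restored cells, while MUC16, which encodes the serous marker CA125, went the other way, with 6.21 FPKM in BRCA1-deficient cells, against 1.40 FPKM in BRCA1-restored cells. Fibroblast markers (4 of 10) summed to 11.1 FPKM in BRCA1-deficient cells, against 100.1 FPKM in BRCA1-restored cells, nearly all of it COL1A2, a collagen chain, at 10.5 FPKM in BRCA1-deficient cells, against 97.3 FPKM in BRCA1-restored cells. Endothelial markers (3 of 10) summed to 42.5 FPKM in BRCA1-deficient cells, against 11.96 FPKM in BRCA1-restored cells. The larger part of both sums came from 1 gene, and all 3 were higher in BRCA1-deficient cells. None of 10 leukocyte markers had a row, PAX8 and EPCAM are not analysed here, and WT1 was under 1 FPKM in both lines. ESR1 and PDGFRA were listed at 0 in BRCA1-deficient cells and PDGFRB at 0 in BRCA1-restored cells, and each was under 1 FPKM in the other line. The part of these markers in the members' differences was not tested.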

How the data were processed

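The deposited table holds FPKM, a log2 fold change, a p-value and an adjusted p-value for 1806 genes, all made by the authors, and lists only genes with an adjusted p of at most 0.0499. The submitters' processing notes name HISAT2, StringTie 1.3.3b and the mouse build mm9, whereas the IDs are human. The deposited coordinates are read as GRCh38, since those of HK2 and SLC16A3 equal GENCODE release 29. No source used here names the test behind the deposited p-values. Each FPKM is, within a tolerance of 0.02 of its last decimal, a whole number of such steps after multiplication by 3, so it is read as a mean of 3 values, which the labels do not describe.

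With 1 labelled sample per line no test was run, and any spread behind the authors' p-values may be technical. Differences are log2 ratios of FPKM + 1, with 2-fold as the size rule. Genes named are the members, BRCA1, every gene of the 13 pathway lists and the marker lists with a row, the 2 genes nearest in level to each member and its nearest listed neighbours on the chromosome. A few genes that this rule names are not reported here. The members and lists were chosen with earlier results of these data known. Counting and motif search were tested on simulated data. A planned comparison of protein sequences was not made, as no protein table was used here. Python 3.11.15, numpy 2.4.6, pandas 2.3.3 and matplotlib 3.10.9 were used.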

Additional observations from a re-analysis of the deposited data

How the results depend on the processing

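The direction of HK2, SLC16A3, ANGPTL4 and CA12 was the same under pseudocounts of 0.1 and 0.01, equal totals, centring and the authors' fold. HK2 ranged between -2.00 and -2.90 and ANGPTL4 between -1.26 and -2.15 on the log2 scale, past 2-fold in every setting. SLC16A3 was under 2-fold with equal totals (0.9357) and with centring (0.4131). CA12, under 2-fold on FPKM + 1, was past it with pseudocounts of 0.1 (-1.4992) and 0.01 (-1.8426) and with the authors' fold (-1.7686), because its level is low. Equal totals lowered BRCA1-deficient cells by 0.43 (log2), which moved the median of all listed genes by -0.07, and centring by 1.01, which moved it by -0.21; both rest on called genes alone.

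Pathway list genes past 2-fold numbered 8 higher and 13 lower. They were 13 and 20 with a pseudocount of 0.1, 13 and 21 with 0.01, 14 and 21 by the authors' fold, 2 and 14 with equal totals, 1 and 15 with centring, and 0 and 4 at 4-fold. Over all listed genes the 457 higher and 406 lower became 840 and 756, 896 and 812, 964 and 831, 178 and 520, 63 and 550, and 50 and 42 under the same settings in that order. Where not stated above, the cause was not tested. A minimum of 1 FPKM in either or both lines left all 4 counts within 1.5 times. No paired analysis was possible because each line has 1 sample and the result comes from no test. No replicate could be left out.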

Other observations

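The listed genes next to the members on their chromosomes went both ways. FASN, the fatty acid synthase, lies 130.1 kb from SLC16A3 on chromosome 17 and was higher like it, at 111.6 FPKM in BRCA1-deficient cells, against 38.9 FPKM in BRCA1-restored cells. TPM1, a tropomyosin, lies 249 kb from CA12 on chromosome 15 and was lower like it, at 13.8 FPKM in BRCA1-deficient cells, against 59.0 FPKM in BRCA1-restored cells, and PCLAF, a replication factor on the other side of CA12 at 982 kb, had 7.70 FPKM in BRCA1-deficient cells, against 19.3 FPKM in BRCA1-restored cells. ANGPTL4 lies between FBN3, a fibrillin, with 0.0354 FPKM in BRCA1-deficient cells, against 0.104 FPKM in BRCA1-restored cells, and MYO1F, an unconventional myosin, with 0.933 FPKM in BRCA1-deficient cells, against 0.383 FPKM in BRCA1-restored cells. The listed gene nearest to HK2 was DYSF, for the muscle membrane protein dysferlin, 3147 kb away and higher at 19.7 FPKM in BRCA1-deficient cells, against 8.06 FPKM in BRCA1-restored cells. No test was made of these neighbours.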
